A study of Homo sapiens with 6 samples.

Results

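The EGF receptor family and its ligands were followed in U-87 cells labelled P68 knockdown, beside cells labelled P68 wild type. The set comprised 10 genes chosen by symbol, the 4 receptors EGFR, ERBB2, ERBB3 and ERBB4 and the 6 ligands EGF, TGFA, HBEGF, AREG, EREG and BTC. Of these, 9 had a probe set that the probe annotation pairs with exactly 1 gene symbol, out of 18417 genes with such a probe set, and each of the 9 had a single one. AREG was matched by neither symbol, gene identifier nor RefSeq accession and was not analysed here.

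U-87 cells are a long-established human glioma line, labelled as brain tissue. RNA of 6 samples was hybridised to Affymetrix gene-level arrays, 3 from cells labelled P68 knockdown and 3 from cells labelled P68 wild type. P68 is a DEAD-box helicase that unwinds RNA, and DDX5 is its gene. The labels describe all samples alike as grown in medium with fetal bovine serum and transfected either with siP68, an siRNA, or with NC; they do not say by name that the wild-type samples received NC. Separate cultures are not mentioned for the replicates, so that p-values reflect only how these samples varied, possibly for technical reasons. The series title links P68 to DUSP5, growth and invasion of glioma cells, and the comparison described here asks whether the receptors and ligands of the EGF family differed between the groups.

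ERBB receptors are tyrosine kinases of the cell surface. A ligand is made as a membrane-bound precursor, is cut free by a protease of the ADAM family, and brings receptors together as dimers that phosphorylate each other and recruit adaptors of the RAS, PI3K and STAT pathways. EGFR is often amplified or mutated in glioblastoma, which makes the family a central one in this tumour.

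No member differed between knockdown and wild type at an adjusted p under 0.05 in limma (Benjamini-Hochberg over 18417 genes), and no gene of the whole table did, which is 0% of those tested. HBEGF and EGF had the largest differences of the 9, with every knockdown array above every wild-type array, by 0.28 ± 0.12 and 0.27 ± 0.13 (log2 difference ± SE, n = 3 each). EGFR itself was at 4.93 ± 0.17 on the knockdown arrays and 4.90 ± 0.06 on the wild-type arrays (log2 signal, SD, n = 3 each). The 95% confidence intervals of all 9 members, each taken on its own, lay within 1.5-fold of the wild type, between 79.1% and 146.8% of its signal. These intervals bound the array signal and not the transcript level, since 6 of the 9 members lay below the background gauge described below. DDX5, the targeted gene, was at 71.2% of the wild-type signal (95% confidence interval 58.4% to 86.9%). Like every other gene, DDX5 did not pass the threshold (limma adjusted p = 0.902). Its lowest signal was 9.47 in knockdown replicate 1, beside 9.79 and 9.91 in knockdown replicates 2 and 3.

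**Figure D1:**
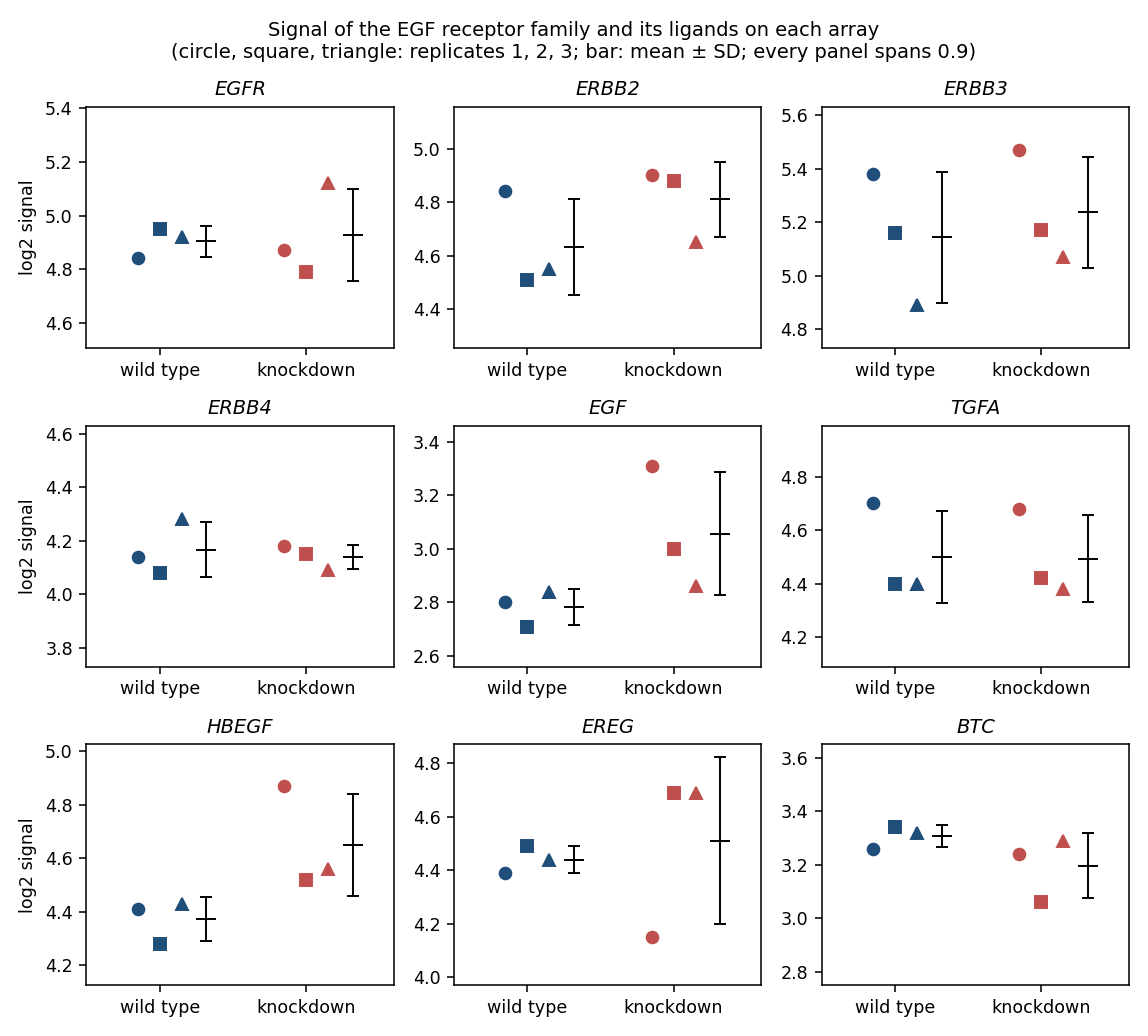
Log2 signal of each of the 9 measured members on each array, with wild-type arrays in blue and knockdown arrays in red; circles, squares and triangles are replicates 1, 2 and 3, the bar is the mean ± SD of the group, and every panel spans 0.9 on the log2 scale. Only for EGF and HBEGF do the groups not overlap. Knockdown replicate 1 lies below the other knockdown arrays for EREG, at 4.15. It stands above them for HBEGF at 4.87, EGF at 3.31, ERBB3 at 5.47 and TGFA at 4.68. By less, it also lies above them for ERBB2 at 4.90 and ERBB4 at 4.18.

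How far these signals stand above background bears on every value. Detection calls were not used here, so the 341 olfactory receptor genes of the table served as a gauge, since such genes are silent in most tissues. The 95th percentile of their mean signals was 4.72 on the log2 scale, and probe sets differ in brightness for reasons other than transcript level, so this is a gauge and not a ranking of the genes. By their mean over the arrays, 6 of the 9 members lay below it: ERBB4, EGF, TGFA, HBEGF, EREG and BTC. EGFR exceeded the olfactory receptor percentile of the same array on 5 of 6 arrays, ERBB3 on 6, ERBB2 on 3, HBEGF on 1 and the other members on none. The signals of EGF, BTC and ERBB4 were also among the dimmest 40% of all genes. For the 6 members below the gauge, a difference between the groups cannot be told from a difference in background. The same limit holds for ERBB2, whose mean of 4.72 was at the gauge. EGFR and ERBB3 lay above it, but so did some olfactory receptor genes. Of these genes, 97.1% had a lower mean signal than EGFR and 97.4% a lower one than ERBB3. A place above the gauge therefore does not establish that a gene was expressed.

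**Figure D2:**
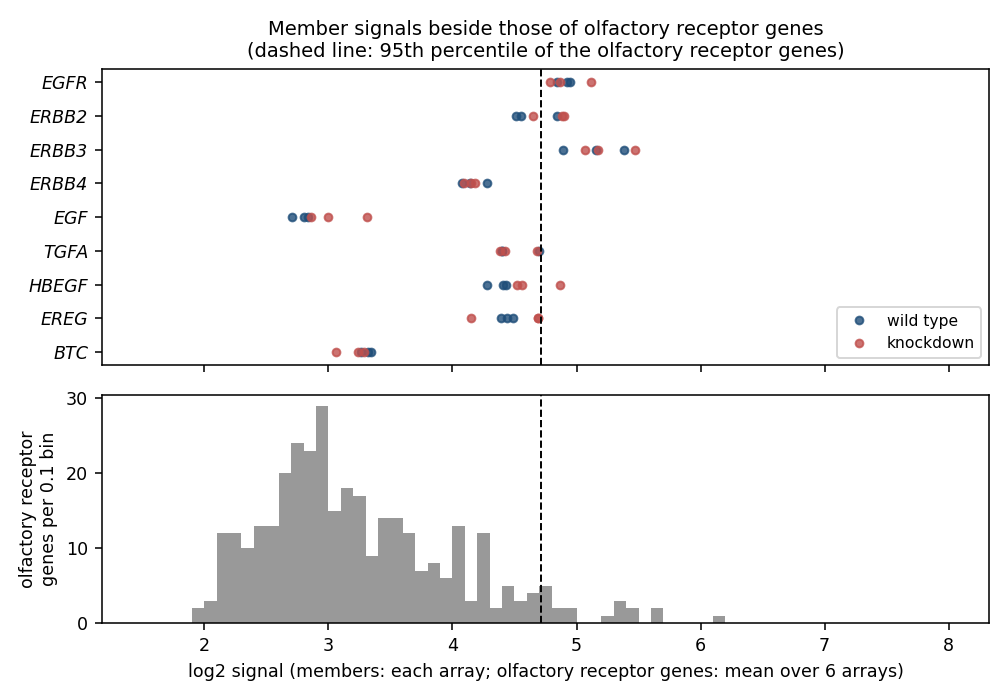
Above, log2 signals of the 9 members on each array (wild type blue, knockdown red); below, a histogram of the mean log2 signals of 341 olfactory receptor genes, with their 95th percentile of 4.72 as a dashed line in both. EGFR and ERBB3 lie to the right of the line on every array, ERBB2 straddles it, and EGF and BTC lie within the bulk of the olfactory receptor genes.

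The upstream sequences of the members are shown for orientation, for the pair whose groups did not overlap, HBEGF and EGF, and for the receptor they share, EGFR. HBEGF and EGFR were both rich in G and C, and EGF was not. The sequences are the 100 bases before the annotated gene start, 5′ to 3′, from RefSeq (GRCh38.p14), with matches to the searched motifs in capitals.
HBEGF, chr5:140346604-140346703, strand minus: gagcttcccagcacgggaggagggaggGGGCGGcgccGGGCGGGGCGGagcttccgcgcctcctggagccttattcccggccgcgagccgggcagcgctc
EGF, chr4:109912783-109912882, strand plus: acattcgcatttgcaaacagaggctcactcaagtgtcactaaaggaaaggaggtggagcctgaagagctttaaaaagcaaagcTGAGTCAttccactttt
EGFR, chr7:55018917-55019016, strand plus: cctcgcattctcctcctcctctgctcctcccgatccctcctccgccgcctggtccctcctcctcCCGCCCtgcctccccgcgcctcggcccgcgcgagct
Of the 10 members, 9 had an entry in the promoter table, ERBB3 being the other. The 250 bases before the start were searched on both strands for GGGCGG (the GC box, bound by SP1), TATAAA (the TATA box), TGANTCA (the AP-1 site) and TGACGTCA (the cAMP response element), which were held by 42.3%, 11.1%, 6.6% and 1.8% of 27305 promoters. HBEGF had 5 matches to the GC box, 2 of them sharing a base, and 76.4% G and C. TGFA had 3 GC boxes, EGFR had 2 with 73.6% G and C, and ERBB4 and AREG had 1 each. EGF had no GC box, 48.8% G and C, and a match to the AP-1 site, as had ERBB2. The TATA box was matched in EREG and AREG, and the cAMP response element in AREG. BTC matched none of the 4. A match describes the letters only, and HBEGF and EGF held none of the searched motifs in common.

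Among the receptors, EGFR binds EGF, TGFA, HBEGF, AREG, EREG and BTC. Its signals were 4.87, 4.79 and 5.12 in knockdown replicates 1, 2 and 3, and 4.84, 4.95 and 4.92 in the wild-type replicates. The highest and the lowest of the 6 arrays were both knockdown arrays, and the wild-type values lay between them. The log2 difference of 0.02 ± 0.11 (SE) amounted to 102% of the wild-type signal, and its 95% confidence interval ran from 85.4% to 121% (limma adjusted p = 0.982). Without knockdown replicate 3 the log2 difference was -0.073, and without knockdown replicate 2 it was 0.092.

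ERBB2 has no known ligand and acts as the preferred dimer partner of the others. It gave 4.90, 4.88 and 4.65 on the knockdown arrays and 4.84, 4.51 and 4.55 on the wild-type arrays. Wild-type replicate 1 lay among the knockdown values, while the other two wild-type arrays lay below every knockdown array. The log2 difference of 0.18 ± 0.12 (SE) corresponded to 113% of the wild-type signal, with an interval of 93.5% to 137% (limma adjusted p = 0.904). It was 0.28 without wild-type replicate 1 and 0.12 without wild-type replicate 2.

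ERBB3, whose own kinase is very weak and which signals through its partners to PI3K, varied most among the receptors. It gave 5.47, 5.17 and 5.07 on the knockdown arrays and 5.38, 5.16 and 4.89 on the wild-type arrays. Replicate 1 was the highest of each group and the groups overlapped. The log2 difference was 0.09 ± 0.15 (SE; limma adjusted p = 0.942), became -0.023 when knockdown replicate 1 was left out and -0.033 when wild-type replicate 3 was, and reached 0.21 without wild-type replicate 1.

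ERBB4, a receptor of the neuregulins that is known for roles in neurons and heart, gave 4.18, 4.15 and 4.09 on the knockdown arrays and 4.14, 4.08 and 4.28 on the wild-type arrays. All of the knockdown values fell within the wild-type range. Its log2 difference was -0.03 ± 0.10 (SE; limma adjusted p = 0.981), and its SD over the 6 arrays, 0.07, was larger than that of only 7.6% of genes. No receptor thus had groups that did not overlap.

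Among the ligands, HBEGF, a heparin-binding growth factor that is also the receptor of diphtheria toxin, gave 4.87, 4.52 and 4.56 on the knockdown arrays and 4.41, 4.28 and 4.43 on the wild-type arrays. Every knockdown array was above every wild-type array, with the lowest knockdown value 4.52 against the highest wild-type value 4.43. The log2 difference of 0.28 ± 0.12 (SE) was 121% of the wild-type signal, with an interval of 101% to 145%. The limma adjusted p was 0.902 (unadjusted p = 0.0414), and an exact permutation test (two-sided) gave p = 0.1, the smallest that 3 arrays against 3 allow. Without knockdown replicate 1, the highest array for HBEGF, the log2 difference was 0.17, and without knockdown replicate 2 it was 0.34.

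EGF, the founding ligand of the family, is made as a long membrane precursor. It gave 3.31, 3.00 and 2.86 on the knockdown arrays and 2.80, 2.71 and 2.84 on the wild-type arrays. The groups did not overlap, but knockdown replicate 3 at 2.86 was within 0.02 of wild-type replicate 3. The log2 difference of 0.27 ± 0.13 (SE) was 121% of the wild-type signal, with an interval of 99.5% to 147% (limma adjusted p = 0.902; exact permutation p = 0.1, two-sided, the smallest possible). Leaving out knockdown replicate 1 gave 0.15, and leaving out knockdown replicate 3 gave 0.37. All 6 values of EGF lay in the range of the silent olfactory receptor genes, 39.6% of which had a lower mean signal.

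These 2 genes made up 22.2% of the 9 members, whereas the groups did not overlap for 10.1% of all genes tested, a share that would give 0.91 of 9 genes, and for 5.98% of genes with the knockdown higher. HBEGF was the only member at an unadjusted p under 0.05 in limma, beside 5.09% of all genes, or 3.02% counting those higher in the knockdown.

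TGFA, a ligand of EGFR known for autocrine loops in tumour cells, gave 4.68, 4.42 and 4.38 on the knockdown arrays and 4.70, 4.40 and 4.40 on the wild-type arrays. The groups overlapped almost fully, and replicate 1 of each stood above the others. The log2 difference was -0.01 ± 0.13 (SE; limma adjusted p = 0.995), with an interval of 82.0% to 121% of the wild-type signal.

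EREG, a ligand of EGFR and ERBB4 with low affinity and long-lasting action, gave 4.15, 4.69 and 4.69 on the knockdown arrays and 4.39, 4.49 and 4.44 on the wild-type arrays. Its knockdown replicate 1 was the lowest of all 6 arrays, and the other two knockdown arrays were the highest. The SD was 0.31 in the knockdown against 0.05 in the wild type (n = 3 each), and the log2 difference was 0.07 ± 0.15 (SE; limma adjusted p = 0.957). Without knockdown replicate 1 it was 0.25, and without knockdown replicate 2 or 3 it was -0.02. Knockdown replicate 1 was thus the lowest array for EREG and the highest for EGF, HBEGF, ERBB2 and ERBB3.

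BTC, a ligand of EGFR and ERBB4, gave 3.24, 3.06 and 3.29 on the knockdown arrays and 3.26, 3.34 and 3.32 on the wild-type arrays. Its knockdown values were lower in 8 of the 9 pairs of a knockdown with a wild-type array. The log2 difference was -0.11 ± 0.10 (SE; limma adjusted p = 0.914), with an interval of 79.1% to 109% of the wild-type signal, and it was -0.04 without knockdown replicate 2. EPGN, EREG, AREG and BTC follow each other in this order among the protein-coding genes of chromosome 4 in the reference annotation (GRCh38.p14). The 3 of these that were measured had log2 differences of 0.03 for EPGN, 0.07 for EREG and -0.11 for BTC, none of them past the threshold and with overlapping groups in each.

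**Figure D3:**
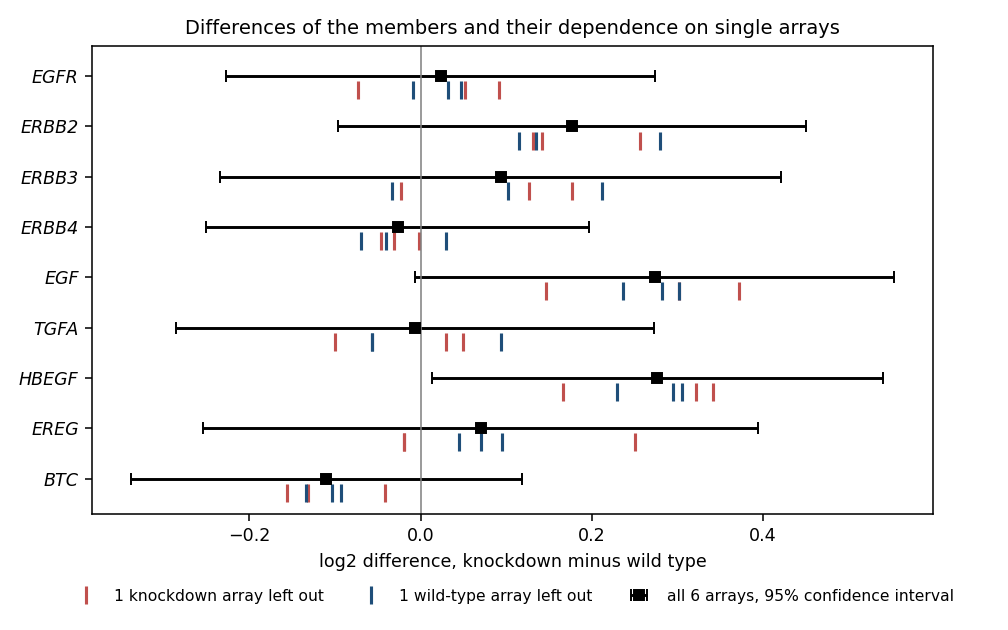
Log2 difference of knockdown minus wild type for each member: black squares with bars are the value from all 6 arrays with its 95% confidence interval, and the ticks beneath are the values with 1 knockdown array (red) or 1 wild-type array (blue) left out. The intervals of all members but HBEGF include 0, and with a single array left out EGFR, ERBB3, ERBB4, TGFA and EREG take values on both sides of 0, while ERBB2, EGF, HBEGF and BTC stay on one side.

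Over the arrays, knockdown replicate 1 was the highest array for 4 of the 9 members, while it was the highest for 18.8% of all genes, and wild-type replicate 2 was the lowest for 4, against 18.4% of all genes. Of the 9 differences, 6 lay above 0 and 3 below, with a median of 0.07, beside 52.5% of all genes above 0 and a median of 0.01. Without wild-type replicate 3 the median of the members was 0.032. The median of the receptors was 0.06, but 0.014 when knockdown replicate 1 was left out and 0.11 when knockdown replicate 2 was. That of the 5 measured ligands was 0.07, but 0.03 when knockdown replicate 2 was left out and 0.15 when knockdown replicate 1 was. Of the 11050 genes outside the dimmest 40%, those whose profile over the 6 arrays was nearest to that of EGFR were APOM, SPATA24 and JOSD1. Their root mean square distances were 0.026, 0.029 and 0.030 on the log2 scale after centring each gene on its mean, against a median distance of 0.17. They were picked for the smallest distances, so lying below the median was fixed by the choice, and a relation to EGFR was not tested.

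The genes around the receptors were taken from 5 lists with 85 genes, of which 80 were measured. None passed the threshold, 30 had values above 0 and 50 below, and 4 had groups that did not overlap, beside 10.1% of all genes, so that such genes were no more frequent here than in the whole table. They were ADAM8, GAB2, EGR1 and MCL1 (ADAM8 and EGR1 named after their values were seen). Of the 5 other EGF-like ligands, 4 lay above 0 (median 0.05, or 0.01 when wild-type replicate 1 was left out and 0.098 when wild-type replicate 2 was). NRG1, the neuregulin that binds ERBB3 and ERBB4, had the largest difference of them, with 4.90, 4.93 and 5.13 on the knockdown arrays and 5.10, 5.28 and 5.22 on the wild-type arrays. Its groups overlapped through knockdown replicate 3 and wild-type replicate 1, and the log2 difference was -0.21 ± 0.11 (SE; limma adjusted p = 0.902). With the mean over the probe sets of NRG1 it was -0.11 (limma adjusted p = 0.929).

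Of 11 genes of ligand shedding, 7 lay above 0 (median 0.06, or 0.012 when wild-type replicate 3 was left out and 0.10 when knockdown replicate 2 was). ADAM17, the main protease that frees TGFA, HBEGF, AREG and EREG, gave 5.0, 4.56 and 4.95 on the knockdown arrays and 4.84, 5.04 and 5.18 on the wild-type arrays, a log2 difference of -0.18 ± 0.14 (SE; limma adjusted p = 0.912). Knockdown replicate 2 was the lowest of the 6 arrays, and without it the difference was -0.045, while without wild-type replicate 3 it was -0.10.

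Of 22 adaptors and enzymes that receive the receptor signal, 5 lay above 0 and 17 below (median -0.045, or -0.0033 without knockdown replicate 1). GAB2, a docking protein that carries PI3K and the phosphatase SHP2, was the one of them with groups that did not overlap. It gave 4.58, 4.87 and 4.74 on the knockdown arrays and 4.56, 4.52 and 4.27 on the wild-type arrays, a log2 difference of 0.28 ± 0.12 (SE; limma adjusted p = 0.902, unadjusted p = 0.0413), and 0.19 without wild-type replicate 3. SOS2, an exchange factor of RAS chosen here after its values were seen, had the largest difference of the list, -0.41 ± 0.20 (SE), with overlapping groups and knockdown replicate 2 at 3.93 (limma adjusted p = 0.902).

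Of 23 genes that restrain the receptors or sort them for degradation, 7 lay above 0 and 16 below (median -0.04, or -0.0067 without knockdown replicate 2), and none had groups that did not overlap. ITCH, a ubiquitin ligase, showed the largest difference, with means of 4.93 ± 0.18 for the knockdown and 5.13 ± 0.15 for the wild type (SD, n = 3 each). The difference for ITCH, -0.20, was -0.13 without knockdown replicate 1 or wild-type replicate 2 and -0.30 without knockdown replicate 3. Of 19 genes known to respond to EGF, 7 lay above 0 and 12 below. Their median was -0.09, or 0.01 without wild-type replicate 2 and -0.11 without wild-type replicate 1. MCL1, a survival factor of the BCL2 family, differed most and gave 5.55, 5.37 and 5.50 on the knockdown arrays and 5.64, 5.68 and 5.68 on the wild-type arrays. Its groups did not overlap, and the log2 difference was -0.19 ± 0.10 (SE; limma adjusted p = 0.902). Its spread in the wild type was narrow, at an SD of 0.02.

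**Figure D4:**
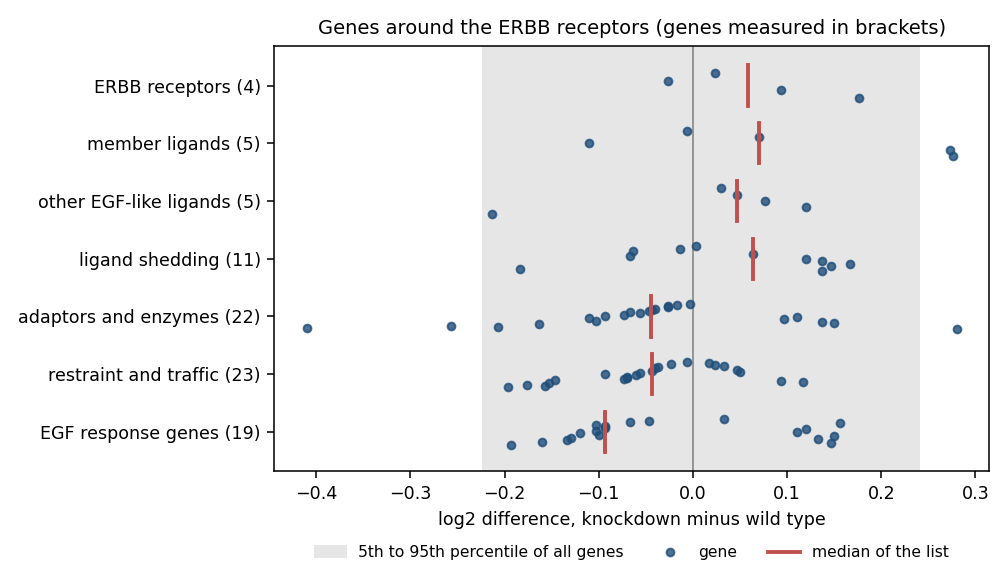
Log2 difference of knockdown minus wild type for each measured gene (blue points) of the receptors, the member ligands and 5 lists of genes around them, with the list's median as a red bar and the 5th to 95th percentile of all genes, -0.22 to 0.24, as a grey band. Of the members, HBEGF and EGF lie just beyond the band, and of the other lists GAB2, SOS2 and GAB1 do.

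Facts of the arrays touch all of these values alike. The array medians lay between 4.32 and 4.37. Over all probe sets, the correlation coefficient was 0.979 to 0.986 within the knockdown and 0.987 to 0.990 within the wild type. Across the groups it spanned 0.98 to 0.99, a range that overlapped both. By this measure, pairs within a group did not stand apart from pairs across the groups. Of the glioma line markers, VIM, NES and FN1 lay above the olfactory receptor gauge and CD44 and TNC did not, and of 5 astrocyte markers GFAP did. Of markers of other cell types, 0 of 4 oligodendrocyte, 1 of 5 microglial, 2 of 5 endothelial and 2 of 5 neuronal genes lay above it, and none of these lists held a gene past the threshold between the groups. The range of their mean signal per array was 3.90 to 3.98 in the knockdown and 3.83 to 3.95 in the wild type for the microglial genes, and 4.60 to 4.73 and 4.56 to 4.62 for the endothelial genes. In these bulk samples fewer cells that express a gene and less RNA per cell cannot be told apart.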

How the data were processed

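The authors deposited log2 signals of 29096 probe sets on 6 arrays, and RMA (background correction, quantile normalisation and summary over probes) was used, per the submitters' processing notes; for software, version and genome build the entry is "not given in the sources used here". Quantile normalisation hides any shift common to most genes. By the probe annotation, 19460 probe sets had 1 gene symbol, 1754 had more and 7882 had no symbol. The probe set with the highest mean stood for a gene, which left 18417 genes. Knockdown and wild type were compared with limma 3.58.1 in R 4.3.3 (lmFit and eBayes, two-sided, group as the only term, Benjamini-Hochberg over all genes, threshold 0.05, no filter on dim probe sets). The script was tested on simulated data. Precision is limited by the number of arrays (median SE of the log2 difference 0.12). The members, lists and tests were chosen with earlier results of these data known. Named genes are the members, DDX5, list genes at an unadjusted p under 0.05 without overlap (otherwise the largest difference of the list), and the 3 genes nearest to EGFR.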

Additional observations from a re-analysis of the deposited data

How the results depend on the processing

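Of the alternatives, array medians centred, cyclic loess, the dimmest 40% of genes removed, probe sets averaged, every probe set, an intensity trend with robust estimation, the replicate block and leaving out each array, none gave a gene, a member or a list gene at an adjusted p under 0.05 (0 in each, limma; at an adjusted p under 0.01 also 0), while unadjusted p-values under 0.05 ranged from 543 genes (without wild-type replicate 2) to 1353 (without knockdown replicate 1) against 937. No gene being called, none of these counts speaks of stability.

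For the 9 members and 5 list genes, 164 of 174 values under the alternatives kept their direction and their side of the threshold, and 10 took the other sign, all with an array left out. This count is no measure of stability, since no gene passed the threshold under any alternative. Each member had a single probe set. Averaging probe sets, using every probe set, removing dim genes, the intensity trend and the replicate block therefore could not alter a member's log2 difference. With single arrays left out the log2 difference ran from -0.073 to 0.092 for EGFR, from -0.033 to 0.21 for ERBB3, from -0.07 to 0.03 for ERBB4, from -0.10 to 0.093 for TGFA and from -0.02 to 0.25 for EREG; the cause was not tested. Centring or cyclic loess turned no member's sign. HBEGF had an unadjusted p under 0.05 in 7 of 13 alternatives (0.0573 after centring on array medians, 0.0629 after cyclic loess in limma).

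Deviations from the group means correlated at 0.27, -0.03 and 0.13 between the groups for replicates 1, 2 and 3. Between samples of unequal replicate number they ran from -0.25 to 0.17. These values do not settle whether the replicate numbers of the labels pair the samples. With the replicate number as a block 0 genes passed the threshold and no call changed; 1149 genes had an unadjusted p under 0.05, and EGF had 0.047 beside HBEGF at 0.0328 (limma). Low signal limits EGF, BTC and ERBB4 most.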
